A study of Homo sapiens with 8 samples.

Results

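The lysosomal cathepsins *CTSD*, *CTSA*, *CTSZ*, *CTSB*, *CTSC*, *CTSL* and *CTSS* and their partners *PSAP*, *LAMP1* and *LAMP2* are 10 of the 20037 protein-coding genes that were placed on GRCh38. They were chosen by name and by their H3K27ac peaks in these data, since *CTSZ* had promoter peaks in MP2_NTC alone and *PSAP* ranked higher in MP2_HDAC1_OE. The members include every peak in each gene and in the 10 kb either side of it. All values of these peaks are therefore a description without a test. The promoter sequences took no part in the choice.

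H3K27ac ChIP-sequencing was measured in MIA PaCa-2 cells, an established line of epithelial cells from a pancreatic carcinoma. Both lines carried the lentiMPHv2 plasmid, which supplies the activator proteins of CRISPR activation, and received a lentiSAMv2 plasmid, which held an sgRNA against *HDAC1* in MP2_HDAC1_OE and a non-targeting sgRNA in MP2_NTC. Each line had 2 H3K27ac samples and 2 control samples without an antibody, which gives 8 samples in 4 groups. Each condition is represented by a single engineered line, so the sgRNA and any other difference between the lines cannot be told apart, and the level of *HDAC1* itself is not measured by the peaks.

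The authors deposited 1 list of peaks per line, made over both of its H3K27ac samples, with 25045 peaks in MP2_HDAC1_OE and 22569 in MP2_NTC. The lists hold no value for a single sample, so the spread between samples and the sequencing depth are unknown, and a peak missing from a list is not evidence that H3K27ac was absent. The signal of a peak is the strength given by the authors' peak caller, from 11.0 to 185 in MP2_HDAC1_OE and from 11.7 to 220 in MP2_NTC. The scaling of the signal between the lists is not known, so lines were compared by rank, the percent of peaks in the same list with a lower signal. The score of a peak, from 540 to 1000, is a scaled measure of its reproducibility (IDR), and 1000 is the highest value. A score of 1000 is common, at 33.8% of the peaks of MP2_HDAC1_OE and 40.4% of those of MP2_NTC. Peaks that overlapped by at least 1 bp were merged into regions, and a region with peaks of both lines was called shared. The 7 markers listed for an epithelial carcinoma line included *VIM* and *CDH2*, which mark mesenchymal cells. Of the 7, 4 had a promoter peak, while 52.5% of all protein-coding genes had none in either line. They were *KRT18* and *KRT19* (keratins) and *VIM* (vimentin) in both lines, and *KRT8* in MP2_HDAC1_OE alone. *KRT19* ranked at 42.8 in MP2_HDAC1_OE and only 6.86 in MP2_NTC, without a shared region. *EPCAM*, *CDH1* and *CDH2*, which encode adhesion proteins, had none. Among the markers of other cell types, 1 of 5 leukocyte markers (*CD14*, MP2_NTC alone), 1 of 3 endothelial markers (*CDH5*, both lines), 0 of 3 fibroblast markers and 0 of 3 acinar markers had a promoter peak.

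Cathepsins are the main proteases of the lysosome, the acidic compartment in which cells degrade proteins, lipids and sugars. They are made as inactive precursors, sorted to the lysosome by mannose 6-phosphate receptors and activated there, and tumour cells can also secrete them. PSAP is cut into the saposins, which present sphingolipids to lysosomal enzymes, while LAMP1 and LAMP2 are the most abundant glycoproteins of the lysosomal membrane. Many lysosomal genes carry an E-box, CACGTG, near their start, within the CLEAR element that TFEB and related factors bind. H3K27ac is an acetyl mark on histone H3 that is found at active promoters and enhancers.

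Promoter sequences were taken from RefSeq (GRCh38.p14) for *CTSD*, *CTSA*, *CTSZ*, *CTSC*, *CTSL* and *LAMP1*. Those of *LAMP1*, *CTSA*, *CTSD* and *CTSZ* are shown because their promoters carried peaks of 1 line alone or of both lines and they ranged from 6 E-boxes to 0. Each runs 5′ to 3′ in the direction of the gene, from 250 bases before the start to 20 bases after it, and capitals mark the E-box CACGTG. The intervals were chr13:113296989-113297258 on the + strand for *LAMP1*, chr20:45891085-45891354 on the + strand for *CTSA*, chr11:1763908-1764177 on the - strand for *CTSD* and chr20:59007235-59007504 on the - strand for *CTSZ*.
LAMP1: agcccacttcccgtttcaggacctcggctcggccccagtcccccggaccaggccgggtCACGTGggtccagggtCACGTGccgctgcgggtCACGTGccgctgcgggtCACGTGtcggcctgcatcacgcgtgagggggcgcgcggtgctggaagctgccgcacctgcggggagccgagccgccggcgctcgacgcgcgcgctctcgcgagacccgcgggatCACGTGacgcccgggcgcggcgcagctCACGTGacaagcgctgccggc
CTSA: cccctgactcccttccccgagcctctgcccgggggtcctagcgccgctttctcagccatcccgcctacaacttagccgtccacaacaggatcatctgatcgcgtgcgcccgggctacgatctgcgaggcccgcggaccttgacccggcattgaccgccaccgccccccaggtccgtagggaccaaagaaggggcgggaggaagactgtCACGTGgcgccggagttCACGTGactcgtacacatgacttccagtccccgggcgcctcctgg
CTSD: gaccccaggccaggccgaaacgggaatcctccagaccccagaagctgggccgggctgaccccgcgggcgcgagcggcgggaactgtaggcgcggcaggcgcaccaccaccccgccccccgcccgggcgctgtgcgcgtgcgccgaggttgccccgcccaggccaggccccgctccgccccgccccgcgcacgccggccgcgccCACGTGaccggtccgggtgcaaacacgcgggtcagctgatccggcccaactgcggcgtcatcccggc
CTSZ: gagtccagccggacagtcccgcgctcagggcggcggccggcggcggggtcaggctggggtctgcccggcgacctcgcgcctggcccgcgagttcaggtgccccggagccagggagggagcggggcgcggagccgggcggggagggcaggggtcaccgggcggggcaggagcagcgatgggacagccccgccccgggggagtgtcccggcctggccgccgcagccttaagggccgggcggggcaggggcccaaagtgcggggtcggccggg

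The E-box and the longer TCACGTGA, which contains it, were searched in the 300 bases from 250 before the start to 50 after it. Both read the same on either strand, so each match was counted once. CACGTG occurred in 2548 of 35116 RefSeq promoters of this length (7.26%) and in 8.34% of those of protein-coding genes. *LAMP1* had 6 copies, the highest number in any of these promoters, and it was the only promoter with 6. They started at positions -192, -176, -159, -142, -28 and -1 from the start. *CTSA* had 2 copies, at -42 and -25, and at least 2 were present in 233 promoters (0.664%). *CTSD* had 1 copy at -47, and *CTSZ*, *CTSC* and *CTSL* had 0. TCACGTGA was found at the last 2 E-boxes of *LAMP1* and at the second of *CTSA*, and in 344 promoters overall (0.980%). The GC content of the promoters ranged from 58.0% at *CTSC* to 81.0% at *CTSZ*. These matches describe letters in the window and do not show that a factor was bound.

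**Figure D1:**
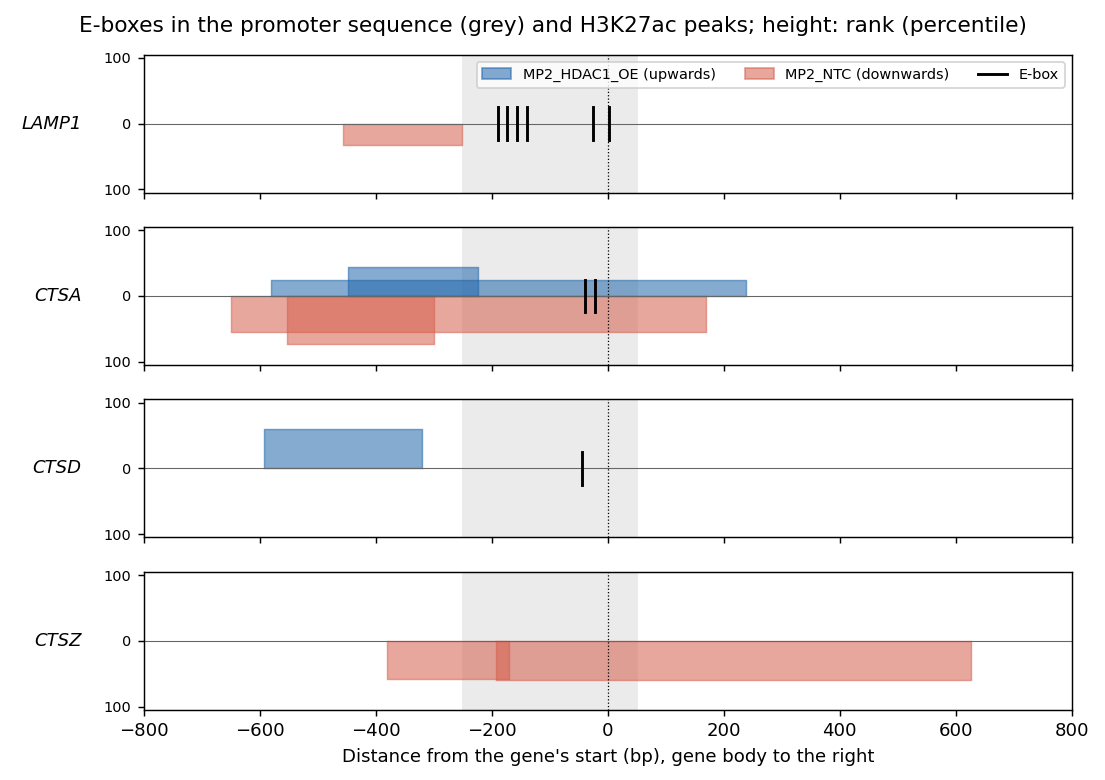
Positions of the E-boxes (black ticks) and of the H3K27ac peaks (bars) against the distance from the gene's start in bp, for LAMP1, CTSA, CTSD and CTSZ. Bars upwards are MP2_HDAC1_OE and bars downwards MP2_NTC, the height is the rank within the list as a percentile, and grey marks the 300 bases searched. The E-boxes of CTSA lie under peaks of both lines, while those of LAMP1 and the E-box of CTSD lie outside the peaks.

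Of the promoters with a sequence, those of *CTSA* and *CTSZ* lay under peaks. All 300 bases at *CTSA* were covered in both lines, and all 300 bases at *CTSZ* were covered in MP2_NTC and 0 in MP2_HDAC1_OE. At *LAMP1* and *CTSD* the nearest peaks ended 252 bp and 321 bp before the start, outside the sequences shown, so their E-boxes were not inside a listed peak.

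In the windows of the 10 genes, 7 had at least 1 region of H3K27ac, beside 58.5% of all protein-coding genes. *CTSC*, *CTSL* and *CTSS* had no peak in either list. The other 7 genes held 15 regions made of 38 peaks, with 21 peaks in MP2_HDAC1_OE and 17 in MP2_NTC. Shared regions numbered 8 (53.3%), regions of MP2_HDAC1_OE alone 5 (33.3%) and regions of MP2_NTC alone 2 (13.3%). The same classes made up 50.7%, 28.6% and 20.7% of the 18678 regions of the whole genome. Both regions of MP2_NTC alone were at promoters, and 4 of the 5 regions of MP2_HDAC1_OE alone lay elsewhere. The promoter region of *CTSZ* took part in the choice of the genes, and the same split over the whole genome is not given, so no contrast between the lines is drawn. The region counts depended on the settings. With peaks joined only where they overlapped by 50% of the shorter peak, 5 regions were of MP2_NTC alone and 6 of MP2_HDAC1_OE alone. With windows of 2 kb, 3 were of MP2_HDAC1_OE alone. The peaks covered 11116 bp in MP2_HDAC1_OE and 8689 bp in MP2_NTC.

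Regions of MP2_HDAC1_OE alone were found at 3 genes, *CTSD*, *CTSA* and *PSAP*, beside 21.5% of all protein-coding genes. Regions of MP2_NTC alone were found at 2 genes, *CTSZ* and *LAMP1*, beside 19.0%. With peaks joined at an overlap of 1 bp, no member had regions of both kinds, and *CTSB* and *LAMP2* had shared regions only. This depended on that setting. With an overlap of 50% of the shorter peak, a promoter peak of MP2_NTC at *CTSB* and a peak of MP2_NTC upstream of *PSAP* stand alone.

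**Figure D2:**
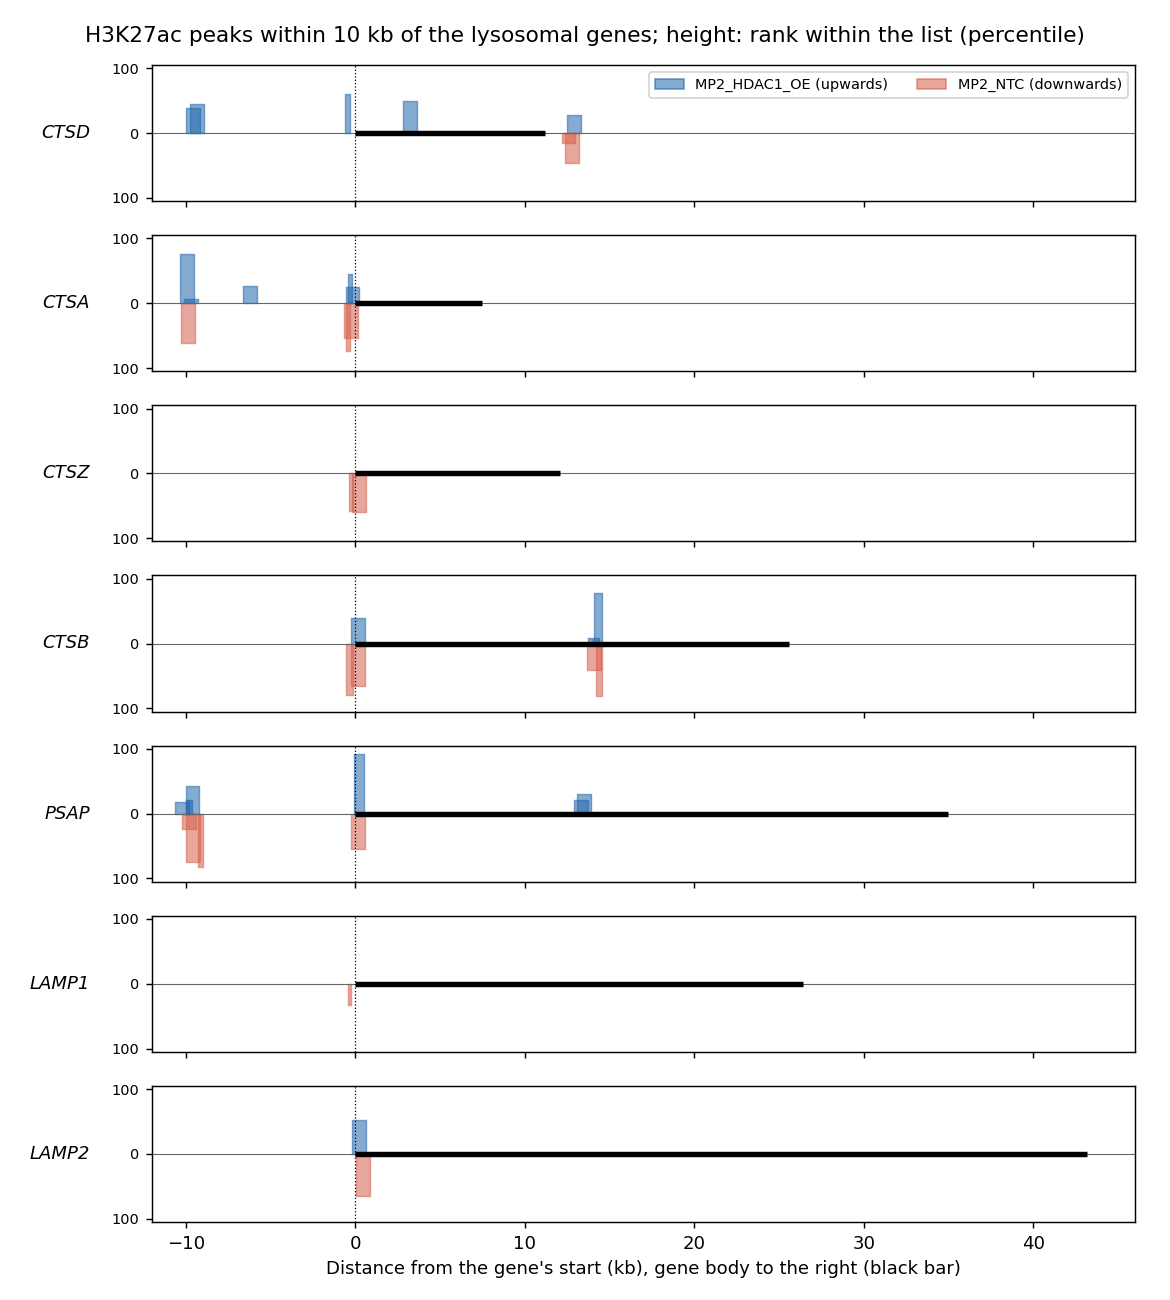
H3K27ac peaks in the 7 genes with a region, drawn against the distance from the gene's start in kb, with the gene body as a black bar to the right. Bars upwards are peaks of MP2_HDAC1_OE and bars downwards peaks of MP2_NTC, and the height is the rank within the list as a percentile. CTSZ and LAMP1 have bars of MP2_NTC alone at the start, and CTSD has a bar of MP2_HDAC1_OE alone.

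The promoter window ran from 2 kb before to 1 kb after the start. For *CTSB*, *CTSS*, *PSAP* and *LAMP2* either end of the gene stood in for its start, and distances were counted from the end with the promoter peaks. Promoter peaks of both lines were present at 4 genes, *CTSA*, *CTSB*, *PSAP* and *LAMP2*, beside 35.8% of all protein-coding genes. *CTSD* alone had a promoter peak in MP2_HDAC1_OE without one in MP2_NTC, a class that held 6.35% of all genes. *CTSZ* and *LAMP1* had promoter peaks in MP2_NTC without one in MP2_HDAC1_OE, a class that held 5.32%. The remaining 3 members had none.

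Genes with promoter peaks of both lines were compared by the rank of the strongest peak, and a difference of at least 10 percentile points was taken as higher. *PSAP* was the 1 member of 4 higher in MP2_HDAC1_OE, beside 30.1% of 7176 genes with promoter peaks of both lines. *CTSA*, *CTSB* and *LAMP2*, 3 of the 4, were higher in MP2_NTC, beside 24.0%. The median difference of the 4 members was -20.5 points (MP2_HDAC1_OE minus MP2_NTC), and that of the 7176 genes was 1.07 points. The strongest peaks of the whole window, compared without the limit of 10 points, leaned less to MP2_NTC. They ranked higher in MP2_HDAC1_OE at 3 members, *CTSD* (13.6 points), *PSAP* (10.1) and *CTSA* (2.90). They ranked higher in MP2_NTC at 2, *LAMP2* (-12.5) and *CTSB* (-3.04). The median of the 9549 genes with peaks of both lines in the window was 1.17 points.

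**Figure D3:**
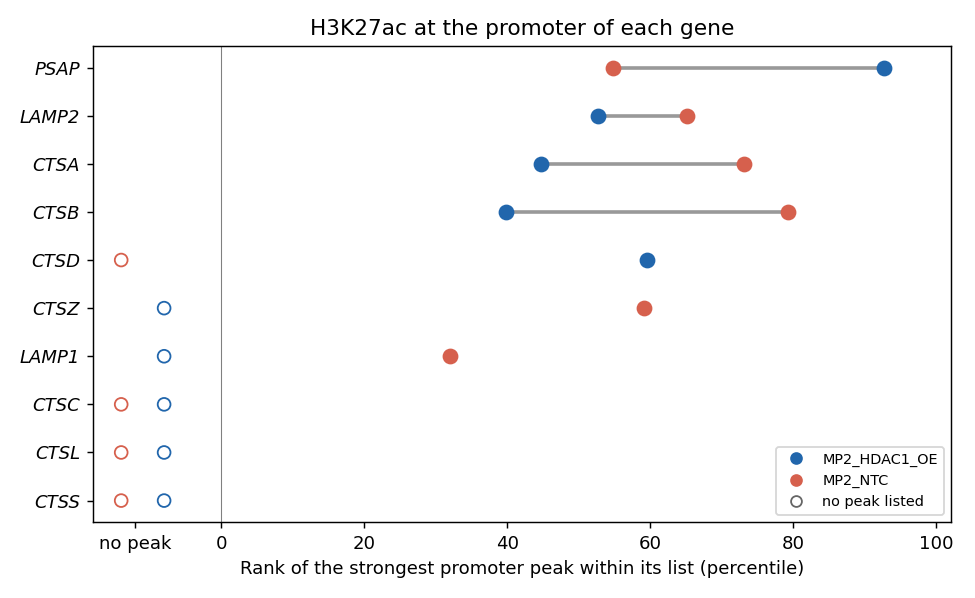
Rank of the strongest promoter peak within its list, as a percentile, for each of the 10 genes. Filled points are MP2_HDAC1_OE (blue) and MP2_NTC (red), a grey line joins the lines of a gene, and open points at the left mark a line with no promoter peak. PSAP has its blue point to the right of the red one, and LAMP2, CTSA and CTSB have theirs to the left.

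*CTSD* encodes the main aspartic protease of the lysosome (chr11:1752755-1763927, - strand). Its promoter peak was listed in MP2_HDAC1_OE alone, at 1764248-1764520, with a signal of 51.6, a rank of 59.6 and a score of 832. This peak was 273 bp wide, with its summit 413 bp before the start, so it lay upstream of the sequence printed above. A further peak of MP2_HDAC1_OE alone lay inside the gene, 3194 bp from the start, at 1760323-1761142 (signal 46.3, rank 49.7). It was 385 bp from an end of the lncRNA gene *PRADX*. Upstream, 9367 bp and 9583 bp before the start, 2 overlapping peaks of MP2_HDAC1_OE alone had signals of 44.1 and 41.2 and ranks of 45.2 and 39.3. The nearest end of another gene to them was that of *LOC105376517*, at 1928 bp. All of these peaks of MP2_HDAC1_OE alone therefore sat in the middle of its list.

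The only H3K27ac of MP2_NTC in the *CTSD* window lay beyond the 3′ end of the gene, in a shared region at 1750635-1751763. There the peak of MP2_HDAC1_OE had a signal of 35.8 and a rank of 28.6. Those of MP2_NTC had signals of 47.1 and 27.3 and ranks of 45.9 and 16.0. This region was nearer to *IFITM10*, an interferon-induced transmembrane protein gene, with 450 bp from its end to the nearest summit, than to *CTSD*, and the rank difference was -17.3 points (MP2_HDAC1_OE minus MP2_NTC). Peaks covered 2949 bp of the *CTSD* window in MP2_HDAC1_OE and 1027 bp in MP2_NTC.

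*CTSA* encodes protective protein, a serine carboxypeptidase that also stabilizes the lysosomal enzymes beta-galactosidase and neuraminidase (chr20:45891335-45898820, + strand). Its promoter region, 45890686-45891573, was shared and held 2 peaks of each line. In MP2_HDAC1_OE the signals were 43.8 and 33.1 and the ranks 44.6 and 24.9. In MP2_NTC the signals were 65.9 and 51.9 and the ranks 73.1 and 54.3. Both peaks ranked lower in MP2_HDAC1_OE than the nearest peak of MP2_NTC, by similar steps: the differences were -28.5 points for the summits 35 bp apart and -29.4 points for those 68 bp apart. The scores were 795 for both peaks of MP2_HDAC1_OE and 1000 and 917 for those of MP2_NTC. This promoter lies close to other genes, since the end of *NEURL2* was 44 bp and that of *SPATA25* 80 bp from the nearest summits, so the mark cannot be assigned to *CTSA* alone.

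A second shared region of the *CTSA* window, 45880996-45882016, ran in the opposite direction. Its strongest peak had a signal of 63.8 and a rank of 76.0 in MP2_HDAC1_OE, and 56.6 and 61.7 in MP2_NTC, a difference of 14.3 points. It lay 486 bp from an end of *ZSWIM1*, a zinc finger gene, and 9929 bp before the start of *CTSA*. A peak of MP2_HDAC1_OE alone at 45884679-45885498 (signal 34.6, rank 26.8) was 177 bp from the other end of *ZSWIM1*. Over the whole window the strongest peaks differed by 2.90 points, but they were at different sites, near *ZSWIM1* in MP2_HDAC1_OE and at the *CTSA* promoter in MP2_NTC.

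*CTSZ* encodes cathepsin Z, a cysteine carboxypeptidase (chr20:58995185-59007254, - strand). All of its H3K27ac was listed in MP2_NTC, in a single region at 59006628-59007634 over the start of the gene. The stronger peak had a signal of 54.8, a rank of 59.1 and a score of 1000, with its summit 216 bp inside the gene. The other had a signal of 53.9, a rank of 57.7 and a score of 906, with its summit 227 bp before the start. Both ranks were above the middle of the MP2_NTC list. In MP2_HDAC1_OE the promoter, the gene body and the 10 kb either side held no peak, so 1007 bp were covered in MP2_NTC and 0 bp in MP2_HDAC1_OE. The nearest summit was 8957 bp from the end of *TUBB1*, so no other gene end lay at this region.

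*CTSB* encodes cathepsin B, a cysteine protease with both endopeptidase and peptidyl-dipeptidase activity (chr8:11842524-11868087). Its promoter region, 11867513-11868616, was shared. MP2_HDAC1_OE had 1 peak there, with a signal of 41.5, a rank of 39.8 and a score of 556. MP2_NTC had 2 peaks, with signals of 72.4 and 59.7, ranks of 79.2 and 65.9 and scores of 1000. The strongest peaks differed by -39.4 points, and 266 of the 7176 genes (3.71%) had a difference as low or lower. The strongest peak of MP2_NTC was 332 bp before the gene, where MP2_HDAC1_OE listed no summit. For the peaks with summits 11 bp apart the difference was -26.0 points, so the size of the difference depended on which peaks were paired while its direction did not.

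Inside *CTSB*, 14280 bp from this end, a second shared region at 11853519-11854412 was close in rank. The strongest peak had a signal of 64.9 and a rank of 77.2 in MP2_HDAC1_OE and a signal of 73.8 and a rank of 80.3 in MP2_NTC, both with scores of 1000. The difference of -3.04 points was under the 10 points taken as higher. The weaker peaks there ranked at 9.16 and 9.06 in MP2_HDAC1_OE and at 41.6 in MP2_NTC. In both lines the strongest peak of *CTSB* was thus inside the gene, far above the promoter in rank in MP2_HDAC1_OE (77.2 and 39.8) and close to it in MP2_NTC (80.3 and 79.2). Peaks covered 1645 bp in MP2_HDAC1_OE and 1959 bp in MP2_NTC.

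*CTSC* (chr11:88293592-88337736, - strand), which encodes dipeptidyl peptidase 1, the enzyme that activates serine proteases of granules, had no region in either line. *CTSL* (chr9:87726119-87731469, + strand), a cysteine endopeptidase of most cells, and *CTSS* (chr1:150730188-150765778), a cysteine protease that trims the invariant chain in antigen-presenting cells, had none either. Their windows held 0 of the 38 peaks. The list gives no level of H3K27ac below its threshold, so these genes cannot be compared between the lines.

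*PSAP* encodes the precursor of the saposins (chr10:71816298-71851251). Its promoter region, 71850705-71851524, held 1 peak of each line with summits 1 bp apart, 135 bp and 136 bp inside the gene. In MP2_HDAC1_OE the signal was 88.1, the rank 92.6 and the score 1000. In MP2_NTC the signal was 52.2, the rank 54.8 and the score 865. The promoter thus stood 37.8 points higher in MP2_HDAC1_OE, where it was among the strongest peaks of the list. A difference as high or higher was found at 412 of the 7176 genes (5.74%). The higher rank of *PSAP* took part in the choice of these genes, so this share is a description and not a test. The peak was 574 bp wide in MP2_HDAC1_OE and 820 bp in MP2_NTC, the median width in both lists.

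The region upstream of *PSAP* went the other way. At 71860256-71861885, 9128 bp to 10225 bp before the gene, each line had 3 peaks. In MP2_HDAC1_OE the signals were 42.9, 30.3 and 27.3 and the ranks 42.9, 21.7 and 18.5. In MP2_NTC the signals were 76.6, 67.4 and 34.6 and the ranks 82.5, 74.8 and 23.4. The strongest peaks differed by -39.6 points, and those with summits 12 bp apart by -31.9 points. No end of another gene lay nearer to these peaks than that of *PSAP*. The promoter and the upstream region of *PSAP* therefore differed between the lines in opposite directions. Another region, 71837333-71838369, was of MP2_HDAC1_OE alone and lay 13508 bp inside the gene, with signals of 36.6 and 29.1 and low ranks of 29.9 and 20.5.

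*LAMP1* (chr13:113297239-113323672, + strand) had 1 peak, of MP2_NTC alone, at 113296783-113296987. It was narrow, 205 bp, with a signal of 39.8, a rank of 32.0 and a score of 1000, and its summit lay 353 bp before the start. Of the 3 members with promoter peaks of 1 line alone (*CTSD*, *CTSZ* and *LAMP1*), this was the lowest rank. No peak of MP2_HDAC1_OE lay in the *LAMP1* window. All 6 E-boxes printed above lay between this peak and the first bases of the gene.

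*LAMP2* (chrX:120426148-120469349), whose product also takes part in the fusion of lysosomes with autophagosomes, had 1 shared region at 120468511-120469573. The peak of MP2_HDAC1_OE had a signal of 47.8, a rank of 52.6 and a score of 668, with its summit 185 bp inside the gene. That of MP2_NTC had a signal of 59.1, a rank of 65.1 and a score of 947, with its summit 428 bp inside. The difference of -12.5 points was just past the 10 points taken as higher and was the smallest of the 4 promoters. Each peak was 820 bp wide, the peaks overlapped and the summits were 243 bp apart.

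**Figure D4:**
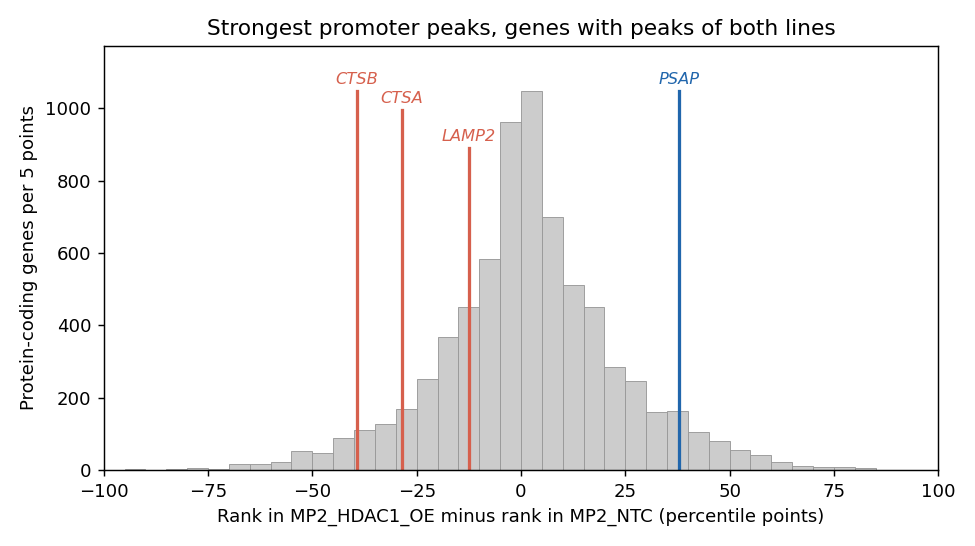
Histogram of the rank difference of the strongest promoter peak, MP2_HDAC1_OE minus MP2_NTC in percentile points, over the 7176 protein-coding genes with promoter peaks of both lines, in bins of 5 points. Coloured lines mark CTSB, CTSA and LAMP2, below 0, and PSAP, above 0.

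The distribution over all genes sets the scale for these differences. The middle 50% of the 7176 genes lay between -9.40 and 13.2 points, and 90% lay between -35.2 and 39.1 points. *CTSB* was below that wider range. *CTSA*, *PSAP* and *LAMP2* were inside it and outside the middle 50%, with *LAMP2* closest to the middle. Counting all 8 shared regions of the members, promoter or not, 2 were higher in MP2_HDAC1_OE, at *PSAP* and near *ZSWIM1*, and 6 were higher in MP2_NTC, 5 of them by at least 10 points. Their median difference was -14.9 points. Of all 9477 shared regions, 32.8% were higher in MP2_HDAC1_OE and 25.6% in MP2_NTC by at least 10 points, with a median of 1.51 points.

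The signals gave the same order as the ranks, which were computed from these signals, so this is not independent support. With the log2 ratio of the strongest promoter signals set relative to the median of all genes, *PSAP* was at 0.82, *LAMP2* at -0.24, *CTSA* at -0.52 and *CTSB* at -0.73.

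The other lysosomal genes were taken from 7 lists with 85 genes. Promoter peaks of both lines were found at 40 of them (47.1%), of MP2_HDAC1_OE alone at 9 (10.6%), of MP2_NTC alone at 11 (12.9%) and of neither line at 25 (29.4%). Over all protein-coding genes these classes held 35.8%, 6.35%, 5.32% and 52.5%. Among the 40 genes, 11 were higher in MP2_HDAC1_OE and 9 in MP2_NTC, with a median of 1.15 points. This was close to the 7176 genes, with 30.1% and 24.0% and a median of 1.07 points. The members, with 1 higher and 3 lower in MP2_HDAC1_OE, are too few to set against these counts by more than description.

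Of 10 other cathepsins and endopeptidases, 3 had promoter peaks, all in both lines. *LGMN*, legumain, which processes cathepsin precursors, ranked at 73.4 in MP2_HDAC1_OE and 54.2 in MP2_NTC. *CTSO* ranked at 80.1 and 68.0. *CTSV*, a close relative of *CTSL*, was high in both lines at 89.3 and 94.9. The cystatins, which inhibit cysteine cathepsins, had promoter peaks at 2 of 5 genes. *CST3*, cystatin C, ranked at 64.3 in MP2_HDAC1_OE and at 92.2 in MP2_NTC, while *CSTB*, cystatin B, had a promoter peak in MP2_NTC alone at a rank of 91.1. These 2 cystatins ranked higher, or had a promoter peak only, in MP2_NTC, and the other 3 had no promoter peak. Among all genes with promoter peaks of both lines, 24.0% were higher in MP2_NTC. Promoter peaks of MP2_NTC alone were found at 5.32% of all genes. The window of *CSTB* also held 1 shared region.

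Among 10 other membrane proteins and activators, 6 had promoter peaks of both lines. The tetraspanin *CD63* ranked at 92.8 in MP2_HDAC1_OE and 72.1 in MP2_NTC, and *SCARB2*, a membrane protein of the lysosome, at 19.6 and 55.5. *GM2A*, an activator that presents gangliosides as the saposins present other lipids, had a promoter peak of MP2_HDAC1_OE alone (rank 60.8). *LAPTM4B* (47.9) and *TMEM192* (25.2) had one of MP2_NTC alone.

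The saposins serve several of the 21 glycosidases, sulfatases and lipases, of which 11 had promoter peaks of both lines, 4 higher in MP2_HDAC1_OE and 3 in MP2_NTC. *ARSB*, arylsulfatase B, ranked at 79.9 in MP2_HDAC1_OE and 30.4 in MP2_NTC. *GALC*, the galactocerebrosidase, which depends on a product of *PSAP*, ranked at 31.0 and 82.7. *GLB1*, the beta-galactosidase that *CTSA* stabilizes, ranked at 50.2 and 80.5, and *GLA*, an alpha-galactosidase, at 50.3 and 62.6.

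Of 10 sorting genes, 4 had promoter peaks of both lines. *M6PR*, a mannose 6-phosphate receptor, ranked at 55.1 in MP2_HDAC1_OE and 92.1 in MP2_NTC, and the adaptor *GGA1* at 71.8 and 49.6. Of 15 subunits of the V-ATPase, the pump that acidifies the lysosome, 9 had peaks of both lines. *ATP6V1C1* ranked at 55.7 and 33.0 while *ATP6V1H* ranked at 74.8 and 91.7. *ATP6V0B* was 16.4 points higher in MP2_HDAC1_OE. Of the 9 subunits, 2 were higher in MP2_HDAC1_OE, 1 was higher in MP2_NTC and 6 differed by less than 10 points, with a median of 1.65 points. Of 14 regulators of lysosomal genes, 6 had peaks of both lines. Of these 6, 1 was higher in MP2_HDAC1_OE, 2 were higher in MP2_NTC and 3 differed by less than 10 points. *TFEB*, an activator of CLEAR genes, ranked at 52.5 in MP2_HDAC1_OE and 28.2 in MP2_NTC. *MTOR*, the kinase that keeps TFEB in the cytoplasm, ranked at 47.9 and 75.2. *FNIP1*, a partner of folliculin, ranked at 87.4 and 99.2.

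**Figure D5:**
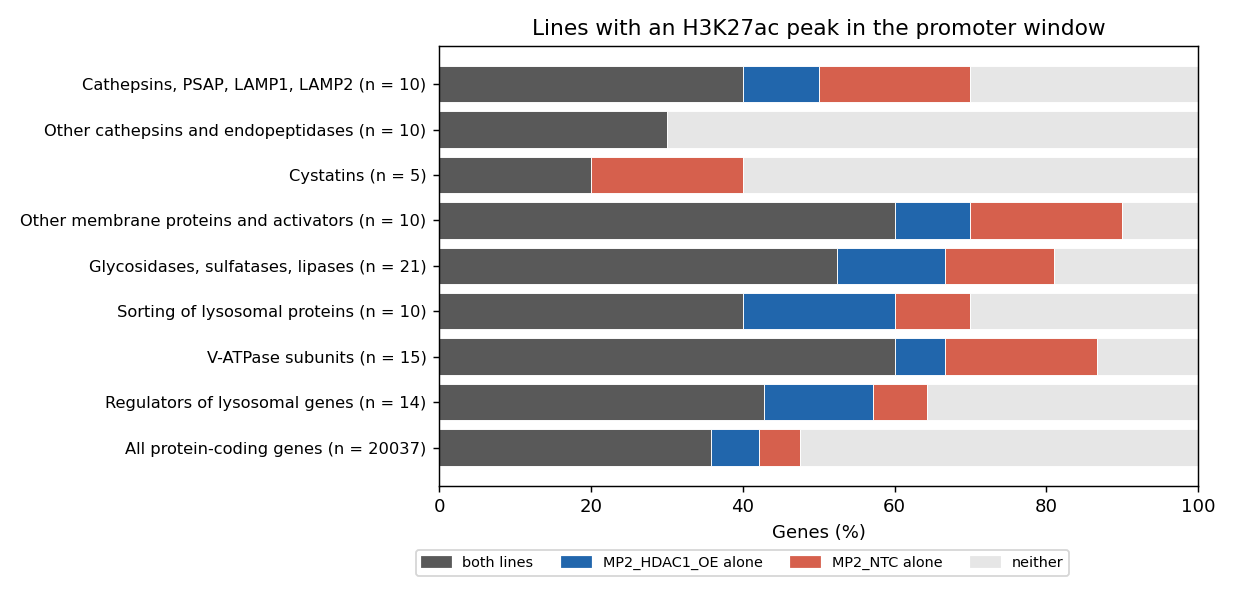
Percent of the genes of each list with a promoter peak of both lines (dark grey), MP2_HDAC1_OE alone (blue), MP2_NTC alone (red) or neither line (light grey), with the number of genes in brackets. Most lysosomal lists have a smaller light grey part than the 52.5% of all protein-coding genes, and the other cathepsins and the cystatins have a larger one.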

How the data were processed

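H3K27ac was measured in 2 samples per line of MP2_HDAC1_OE and MP2_NTC, each with 2 control samples, with 75 bp single-end reads. For each line the authors used ENCODE methods to pool its samples into 1 peak list (IDR optimal set) on hg38. BWA 0.7.12 and Picard 1.88 are named in the submitters' processing notes, and the peak caller and the comparison that set the optimal list are not given in the sources used here. The deposited signal (the caller's strength of a peak) was used to rank peaks within a list. The deposited score (scaled IDR, 540 to 1000) was used only as a value. The lists hold no counts, so depth and precision are unknown. Coverage, HDAC1 peaks and RNA were not analysed here.

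Gene ends and promoters came from RefSeq (GRCh38.p14), whose gene table has no exons. The promoter table gave the start of 6 of the 10 members. The members, lists and limits were chosen with earlier results of these data known. Named are the members, the genes with an end nearest to their regions, and from each list up to 3 genes per direction with a rank difference of at least 10 points or, after these, peaks of 1 line alone. Some genes that the rule names are not reported here. *CTSV*, *HDAC1* and the markers were named outside this rule, *CTSV* after its values were seen. Alternatives changed the overlap, threshold, list length, windows, position and measure. Python 3.11.15, numpy 2.4.6, pandas 2.3.3 and matplotlib 3.10.9 were used, and the methods were tested on simulated data.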

Additional observations from a re-analysis of the deposited data

How the results depend on the processing

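No paired analysis was possible because the peaks carry no value for a single sample, and none could be left out for the same reason. Of 48 alternative counts over the members, 46 stayed within 1.5 times the main value. They include the members ranked higher in a line over the whole window, and not the promoter counts of 1 and 3. With windows of 2 kb, the whole-window counts became 2 for MP2_HDAC1_OE and 3 for MP2_NTC, from 3 and 2. Regions of MP2_NTC alone numbered 5 in place of 2 where peaks were joined only with an overlap of 50% of the shorter peak, and regions of MP2_HDAC1_OE alone numbered 3 in place of 5 with windows of 2 kb, which hold fewer regions. The promoter rank differences of *CTSA*, *CTSB*, *PSAP* and *LAMP2* kept their direction in 24 of 24 alternatives. Most of these could hardly turn it. Summits and windows of 2 kb or 300 bp either side of the start picked the same peaks and left the values unchanged. The stricter threshold mainly widened the differences, as from -28.5 to -38.0 points at *CTSA*, and the log2 ratio used the same signals. The count is therefore not a measure of robustness. Over the whole window, the direction was kept in 33 of 35 alternatives. *LAMP2* turned from -12.5 to 17.4 points with windows of 25 kb, which add regions farther from the gene, and *CTSA* moved from 2.90 to -28.5 points with windows of 2 kb, which leave out *ZSWIM1*. With 300 bp either side of the start, 4 members in place of 5 had a promoter peak of MP2_HDAC1_OE, since that of *CTSD* lies farther away. With 1 list per line, neither the spread between samples nor the effect of unequal depth could be measured.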
